A study of Mus musculus with 22 samples.

Results

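The tumours described here are the 15 of 22 primary buccal tumours of mice selected on their Krt14 level, at 3000 CPM or more (CPM, a gene's share of its library's counts, scaled to a common total). Krt14 is a keratin of basal keratinocytes, the epithelial cells from which squamous carcinoma arises, and the minimum was set on these same libraries, with their values known, to compare Keap1-deleted with Keap1-wildtype tumours that both hold keratinocyte RNA. It kept 4 of 5 untreated Keap1-deleted tumours, 0 of 5 Keap1-deleted tumours with BAP, 5 of 6 untreated Keap1-wildtype tumours and 6 of 6 Keap1-wildtype tumours with BAP. Because no Keap1-deleted tumour with BAP passed, the comparison is between the 4 Keap1-deleted and the 5 Keap1-wildtype untreated tumours, and the 6 wildtype BAP tumours add only to the estimate of spread.

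All the mice carried the Krt5CreER-T2 allele in 1 copy, Trp53 floxed on both alleles, and on both Rosa26 alleles a PIK3CA H1047R transgene, an activated PI3K catalytic subunit, behind a stop cassette. The Keap1-deleted mice carried floxed Keap1 on both alleles besides. The Cre is driven by Krt5, so the alleles recombine in cells that use that promoter, and stroma and immune cells keep Keap1 and Trp53. Tumours were started by 4-hydroxytamoxifen injected into the buccal mucosa, with no further agent (untreated) or with BAP, benzo[a]pyrene, a carcinogen of tobacco smoke. Strain and age are not given in the labels, and the labels do not say that each tumour came from another mouse, so the p values measure the spread between tumours. Whole tumours were sequenced as bulk RNA, in which fewer cells of a type and less RNA per cell cannot be told apart.

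KEAP1 is the substrate adaptor of a CUL3 ubiquitin ligase that marks the transcription factor NRF2, encoded by Nfe2l2, for degradation. Electrophiles and oxidants modify cysteines of KEAP1, NRF2 then accumulates, and with a small MAF partner it binds antioxidant response elements near genes for glutathione synthesis, quinone reduction, the thioredoxin system, iron storage and drug export. In squamous carcinoma of the head and neck, loss of KEAP1 function or gain of NRF2 function is a recurrent lesion. NRF2 protein is governed mainly by degradation, so mRNA of its targets, with Nqo1 the one most often used, serves as its readout in tissue RNA.

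Krt14 chose the tumours and is given as a description, with no test. In Keap1-deleted tumours 1, 2, 4 and 5 it stood at 19964, 12658, 3428 and 21228 CPM of the library total. In Keap1-wildtype untreated tumours 1 to 5 it stood at 30504, 11547, 25322, 27828 and 16843 CPM, and in the 6 wildtype BAP tumours between 19443 and 39377 CPM with a median of 29090.3 CPM. Keap1-deleted tumour 4 was the tumour just inside the minimum, and Keap1-deleted untreated tumour 3, at 1651 CPM, was the one just outside. The other tumours not kept were wildtype untreated tumour 6 at 809 CPM and the 5 Keap1-deleted BAP tumours at 16.6 to 1319 CPM. Passing the minimum did not make keratinocyte content alike: the mean was 14320 ± 8185 CPM in Keap1-deleted and 22409 ± 7943 CPM in wildtype untreated tumours (SD, n = 4 and n = 5).

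**Figure D1:**
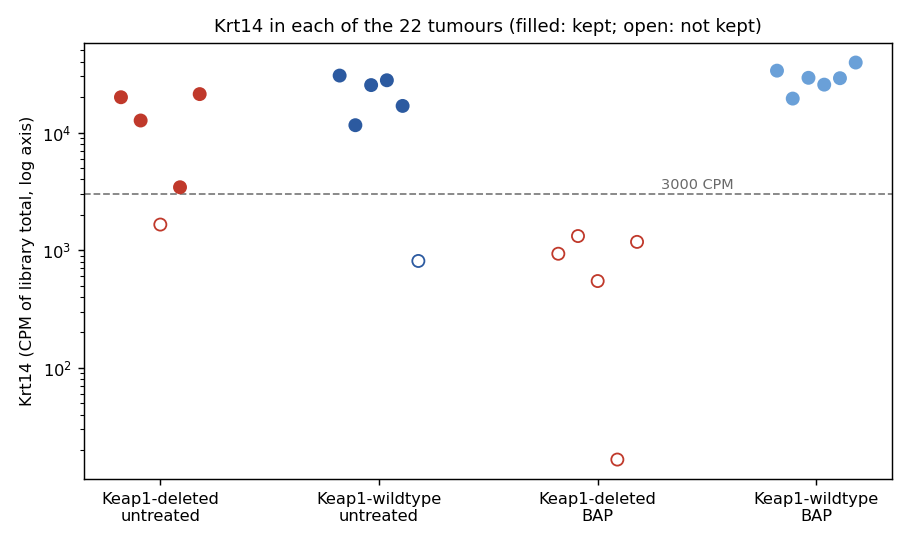
Krt14 of each of the 22 tumours in CPM of the library total on a log axis, by group; filled points passed the minimum of 3000 CPM (dashed line) and open points did not. The 4 kept Keap1-deleted tumours span 3428 to 21228 CPM and the 5 kept wildtype untreated tumours 11547 to 30504 CPM, and no Keap1-deleted BAP tumour reached the line.

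Other keratinocyte genes are likewise values only. Levels from here on are CPM scaled by trimmed mean of M values (TMM). Krt5, the partner keratin of Krt14 and the source of the Cre promoter, stood at 2803, 1674, 562 and 3938 CPM in Keap1-deleted tumours 1, 2, 4 and 5, against 7669, 6388, 4924, 7689 and 4580.4 CPM in wildtype untreated tumours 1 to 5. The highest Keap1-deleted value was below the lowest wildtype untreated one, as for 4.04% of all genes tested. The summed level of 6 defining keratinocyte markers (Krt14, Krt5, Krt15, Trp63, Itgb4 and Col17a1) ran from 4132 to 27007 CPM in the Keap1-deleted tumours and from 17994 to 46568 CPM in wildtype untreated ones. The log2 fold change was negative for 14 of 14 basal keratinocyte genes, with a median of -0.60, and for 17 of 20 differentiation genes, with a median of -0.64. It was negative for 8 of 10 desmosome genes (median -0.47) and for 8 of 13 stress keratins and alarmins (median -0.42). Among all genes it was negative for 9394 of 18540 tested. Most of these genes thus had lower values in the Keap1-deleted tumours kept, a description of tumours that Krt14 chose. Beyond fits with Krt14 or a basal keratinocyte score as a covariate, their part in the results that follow was not tested.

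Total counts ran from 32000650 to 39862777 in the kept Keap1-deleted libraries, from 29602879 to 38345425 in the wildtype untreated ones and from 30579115 to 36087574 in the wildtype BAP ones. The Keap1-deleted libraries had counts in 22312 to 23798 genes, against 18856 to 22224 in wildtype untreated libraries. Mitochondrial transcripts took 1.56% to 2.60% of counts in Keap1-deleted and 1.58% to 10.7% in wildtype untreated libraries, with wildtype untreated tumour 2 at the top. Sample titles ended in the letter R for 1 of 4 Keap1-deleted, 4 of 5 wildtype untreated and 1 of 6 wildtype BAP tumours; its meaning is not given.

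Keap1 itself was lower in every Keap1-deleted tumour. Its level was 22.2, 29.98, 32.2 and 23.5 CPM in Keap1-deleted tumours 1, 2, 4 and 5, against 59.5, 53.2, 45.8, 58.2 and 47.1 CPM in wildtype untreated tumours 1 to 5, and 52.3 to 64.6 CPM with a median of 57.5 CPM in wildtype BAP tumours. The groups did not overlap, and transcripts were not absent. The log2 fold change was -0.92 with an SE of 0.16 (edgeR quasi-likelihood F test, Benjamini-Hochberg adjusted p = 0.00768, lower in 4 of 4). The count covers the whole gene, and which exons are floxed is not given, so reads from any part left in place are included. Outside the kept set, 1 library with the Keap1-deleted label, BAP tumour 2, had a Keap1 level of 65.5 CPM, close to the highest kept wildtype tumour; it takes no part in the comparison.

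Across all genes, 693 of 18540 tested rose in Keap1-deleted tumours (3.74%) and 329 fell (1.77%), 5.51% in either direction, at an adjusted p under 0.05. The median log2 fold change of all genes tested was -0.01. The count rested on single tumours. Without Keap1-deleted tumour 2 it was 134 higher and 6 lower, without Keap1-deleted tumour 4 238 and 26, without wildtype untreated tumour 3 196 and 44, without wildtype untreated tumour 4 217 and 80, and without wildtype untreated tumour 5 1562 and 744. The lower count alone also moved by over 1.5 times without Keap1-deleted tumours 1 (197) or 5 (215), wildtype untreated tumours 1 (501) or 2 (192), or wildtype BAP tumours 3 (214) or 4 (214). In all 15 such fits 126 genes stayed higher and 6 stayed lower, namely Keap1, Cntnap1, Ndufa4l2, Arntl2, Miip and Thyn1, the last 5 named after their values were seen. Scaling by library totals alone gave 613 higher and 144 lower, which is 81.0% of calls higher in place of 67.8%.

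Genes of the NRF2 programme rose more often than genes at large. This list and those below were chosen with earlier results of these data known, so their shares are no independent evidence. Of 109 genes named in 8 lists, 107 were tested, 43 rose (40.2%, against 3.74% of all genes) only Keap1 fell, and 63 did not pass. The median log2 fold change over the 107 was 1.14, and 92 were positive. All 4 Keap1-deleted tumours lay above all 5 wildtype untreated ones for 35 of the 107, where 5.57% of all genes did so, and above all 11 wildtype tumours for 24, against 3.55% of all genes. Keap1 was the only member for which all 4 lay below every wildtype tumour, where 4.04% of all genes lay below the 5 untreated and 1.38% below all 11. Akr1c12 and Abcc2 were not tested because of low counts. With each tumour left out in turn, the number of members higher ranged from 25 to 44. It was lowest without Keap1-deleted tumour 2 (25) or wildtype untreated tumour 3 (25); 23 of the 43 were called in all 15 fits.

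**Figure D2:**
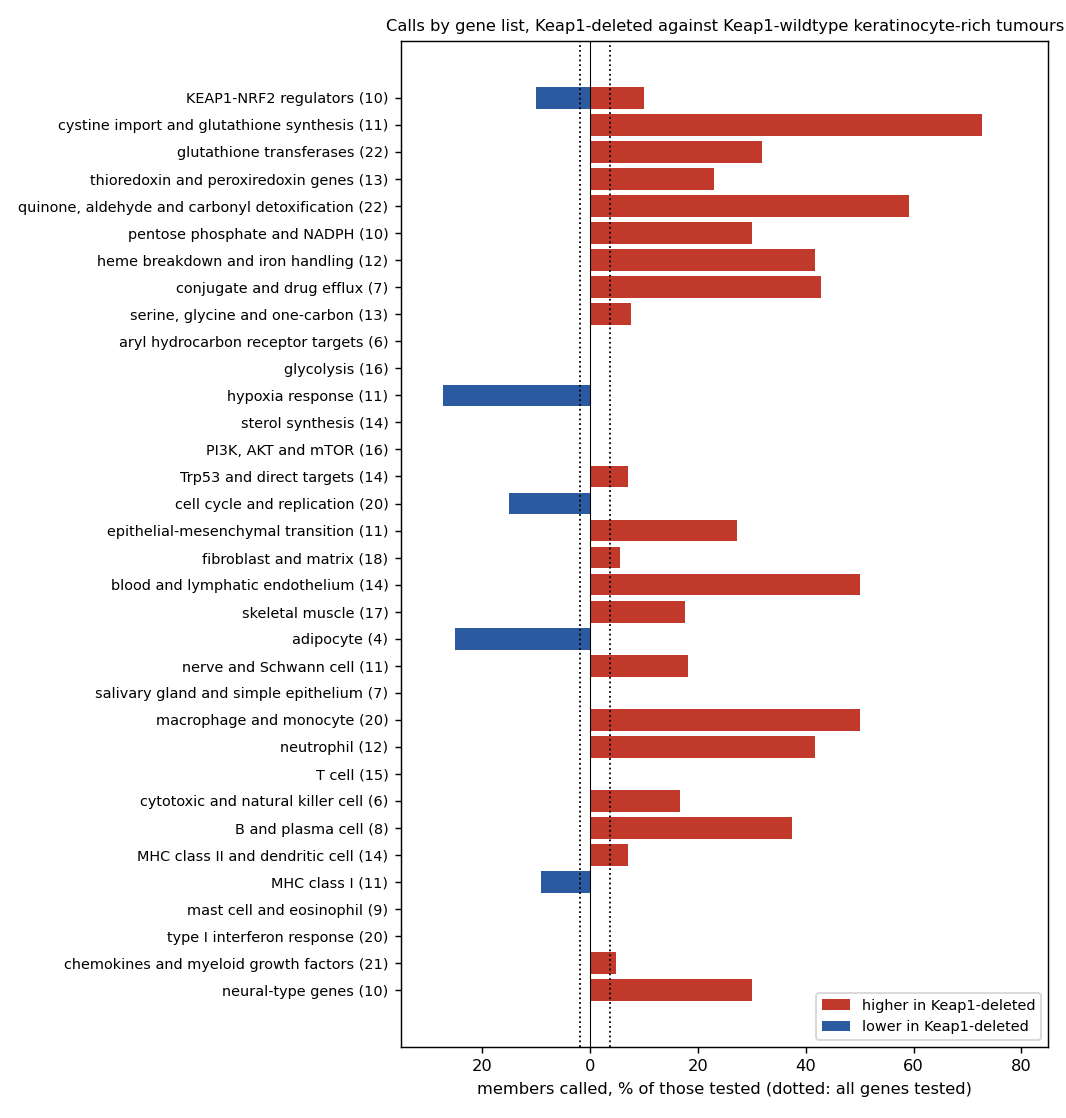
Share of the tested members of each gene list called higher (right) or lower (left) in Keap1-deleted than in wildtype keratinocyte-rich tumours, in percent, with the number tested in brackets; dotted lines mark 3.74% higher and 1.77% lower among all genes tested. The bar for cystine import and glutathione synthesis reaches 72.7% and that for quinone, aldehyde and carbonyl enzymes 59.1%, while the regulators have 1 member on each side.

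A strict form of the antioxidant response element, the letters TGACTCAGC or TGAGTCAGC on either strand, was searched for in RefSeq promoter windows of build GRCm38.p6, from 250 bases before to 50 after the transcript start. These letters hold the AP-1 site TGACTCA or TGAGTCA within them, so a match cannot be assigned to a factor. Of the 43 members that rose, 35 had a window and 3 held the letters (8.57%), against 12 of 508 genes that rose with a window (2.36%), 127 of 12518 tested genes (1.01%) and 0.82% of all 32851 windows. Another form, TGACNNNGC on either strand, takes in TGACTCAGC but not TGAGTCAGC, so the 2 searches are not nested. It was held by 8 of the 35 members (22.86%), against 18.11% of genes that rose, 16.65% of tested genes and 12.39% of all windows. It was thus little more frequent among members than in the background. The 3 windows, Gstp1, Prdx1 and Srxn1, are shown because they hold these letters in the promoters of a glutathione transferase and of 2 genes of the thioredoxin system that rose; capitals mark the match.
Gstp1: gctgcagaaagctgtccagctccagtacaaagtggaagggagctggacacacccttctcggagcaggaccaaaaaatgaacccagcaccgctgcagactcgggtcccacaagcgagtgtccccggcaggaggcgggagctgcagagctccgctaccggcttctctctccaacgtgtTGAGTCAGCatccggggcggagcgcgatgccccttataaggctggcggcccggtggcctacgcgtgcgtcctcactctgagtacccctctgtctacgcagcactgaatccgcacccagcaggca
Prdx1: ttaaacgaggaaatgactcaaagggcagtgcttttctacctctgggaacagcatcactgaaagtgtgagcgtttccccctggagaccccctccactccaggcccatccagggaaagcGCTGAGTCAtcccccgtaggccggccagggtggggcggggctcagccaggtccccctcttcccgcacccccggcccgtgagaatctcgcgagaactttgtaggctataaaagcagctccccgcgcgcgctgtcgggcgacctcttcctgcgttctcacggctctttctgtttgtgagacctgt
Srxn1: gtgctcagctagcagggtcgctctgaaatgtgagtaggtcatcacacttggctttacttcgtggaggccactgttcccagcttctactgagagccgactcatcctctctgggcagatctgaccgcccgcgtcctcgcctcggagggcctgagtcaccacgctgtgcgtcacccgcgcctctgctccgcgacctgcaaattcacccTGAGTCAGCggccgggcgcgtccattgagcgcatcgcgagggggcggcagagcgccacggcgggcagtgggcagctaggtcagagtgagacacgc
The Gstp1 window is chr19:4037863-4038162 on the minus strand, with the match starting at base -74 from the transcript start. The Prdx1 window is chr4:116685349-116685648 on the plus strand, with the match at base -133 and read on the opposite strand. The Srxn1 window is chr2:152105274-152105573 on the plus strand, with the match at base -45.

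Among 10 regulators of the pathway, Sqstm1 rose, Keap1 fell and 8 did not pass the test. Sqstm1 encodes p62, an autophagy receptor that binds KEAP1 and is itself an NRF2 target. It stood at 276, 401, 547 and 318 CPM in Keap1-deleted tumours 1, 2, 4 and 5, against 153, 99.6, 99.98, 91.2 and 146 CPM in wildtype untreated tumours 1 to 5. The groups did not overlap, and Keap1-deleted tumour 4, low for most other members, was here the highest. Its log2 fold change was 1.75 with an SE of 0.23 (edgeR adjusted p = 0.00257). Nfe2l2 mRNA averaged 154 ± 39.2 CPM in Keap1-deleted and 199.9 ± 67.0 CPM in wildtype untreated tumours (SD, n = 4 and n = 5), a log2 fold change of -0.34 with an edgeR adjusted p of 0.576.

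Cystine import and glutathione synthesis was the list with the highest share of members raised, 8 of 11 (72.7%, against 3.74% of all genes), with a median log2 fold change of 1.84; 3 were left without wildtype untreated tumours 3 or 4 and 4 without Keap1-deleted tumour 2. Slc7a11 encodes the cystine-glutamate exchanger xCT. Its level was 960.0, 793, 114 and 1149 CPM in Keap1-deleted tumours 1, 2, 4 and 5, against 142, 34.8, 112, 126 and 105 CPM in wildtype untreated tumours 1 to 5, and its log2 fold change was 2.89 with an SE of 0.51 (edgeR adjusted p = 0.00934). Keap1-deleted tumours 1, 2 and 5 were far above the wildtype ones, and tumour 4 lay within their range.

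Gclc, the catalytic subunit of glutamate-cysteine ligase, the rate-limiting enzyme of glutathione synthesis, showed the same arrangement. It stood at 872, 942, 195 and 947 CPM in Keap1-deleted tumours, against 96.0, 331, 59.2, 103 and 64.9 CPM in wildtype untreated ones. Wildtype tumour 2 was above Keap1-deleted tumour 4, so the groups overlapped. Gclc gave a log2 fold change of 2.53 with an SE of 0.59 (edgeR adjusted p = 0.0285), but the call was lost without Keap1-deleted tumour 2 (adjusted p = 0.0899) or wildtype untreated tumours 3 (0.0753) or 4 (0.0689).

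Its modifier subunit Gclm averaged 359.8 ± 167 CPM in Keap1-deleted and 127 ± 72.5 CPM in wildtype untreated tumours (SD, n = 4 and n = 5), with a log2 fold change of 1.53 and an edgeR adjusted p of 0.0477. This call was lost in 13 of 15 fits that left out 1 tumour, with adjusted p up to 0.117 without Keap1-deleted tumour 2, and was kept only without wildtype untreated tumour 2 or Keap1-deleted tumour 4. Gss, glutathione synthetase, and Gsr, which returns oxidised glutathione to its reduced form, rose with log2 fold changes of 1.84 and 2.02 (edgeR adjusted p = 0.00559 and 0.00377) and were called in all 15. Slc3a2, the heavy chain partner of xCT, rose by 1.17 (edgeR adjusted p = 0.0201), a call lost without Keap1-deleted tumour 2 (0.0733) or wildtype untreated tumours 3 (0.0565) or 4 (0.0537). The glutathione peroxidases Gpx2 and Gpx3 completed the members that rose. Gpx2 averaged 536 ± 319 CPM in Keap1-deleted and 68.7 ± 35.3 CPM in wildtype untreated tumours (edgeR adjusted p = 0.0432). Gpx3 averaged 503 ± 635 CPM in Keap1-deleted and 71.4 ± 29.3 CPM in wildtype untreated tumours (0.0201), with an SD above the mean in the Keap1-deleted ones. Neither was called in all 15 fits that left out 1 tumour.

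Glutathione transferases, which attach glutathione to electrophiles, rose for 7 of 22 members (31.8%), and 21 of 22 had a positive log2 fold change. Gstm1 stood at 1854, 1008, 429.6 and 1183 CPM in Keap1-deleted tumours 1, 2, 4 and 5, against 36.5, 123, 32.8, 118 and 113 CPM in wildtype untreated tumours 1 to 5. Every Keap1-deleted tumour was above every wildtype one, the 6 BAP tumours included (25.9 to 81.8 CPM, median 41.0 CPM). Its log2 fold change was 3.74 with an SE of 0.51 (edgeR adjusted p = 0.00283). Gstp1, whose promoter holds the letters shown above, averaged 419 ± 131 CPM in Keap1-deleted and 112 ± 29.4 CPM in wildtype untreated tumours, a log2 fold change of 1.93 (edgeR adjusted p = 0.00338). Gsta3 rose by 3.99, Gstm2 by 2.51 and Gstm4 by 1.66 on the log2 scale. Members of the Gsta, Gstm and Gstp families share long stretches of sequence, and how reads were divided among them is uncertain.

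Not every transferase passed. Gsta4, a conjugator of the lipid aldehyde 4-hydroxynonenal, stood at 1470.0, 1085, 342 and 1802 CPM in Keap1-deleted tumours, against 754, 228, 488, 301 and 531 CPM in wildtype untreated ones. Tumours 1, 2 and 5 were above all wildtype untreated tumours and tumour 4 among them, and the log2 fold change of 1.37 had an edgeR adjusted p of 0.135.

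In the thioredoxin system 3 of 13 members rose (23.1%). Txnrd1, thioredoxin reductase of the cytosol, stood at 258, 367, 233 and 291 CPM in Keap1-deleted tumours 1, 2, 4 and 5, against 66.1, 33.2, 48.0, 68.1 and 76.2 CPM in wildtype untreated tumours 1 to 5. Every Keap1-deleted tumour was well above every wildtype one, and the log2 fold change was 2.34 with an SE of 0.24 (edgeR adjusted p = 3.13e-04). Prdx1, a peroxiredoxin that reduces hydrogen peroxide, averaged 1898 ± 719 CPM in Keap1-deleted and 719 ± 259 CPM in wildtype untreated tumours, a log2 fold change of 1.43 (edgeR adjusted p = 0.0155). Srxn1, the sulfiredoxin that repairs overoxidised peroxiredoxins, stood at 587, 412, 272 and 873 CPM in Keap1-deleted tumours, against 308, 50.7, 139, 72.2 and 74.9 CPM in wildtype untreated ones. Wildtype tumour 1 reached above Keap1-deleted tumour 4. Srxn1 had a log2 fold change of 2.09 (edgeR adjusted p = 0.0388), and the call was lost in 7 of 15 fits, those without any of the Keap1-deleted tumours 1 (0.0565), 2 (0.0907), 4 (0.0595) or 5 (0.0767) or of wildtype untreated tumours 2 (0.069), 3 (0.0884) or 4 (0.0849).

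Enzymes that reduce or oxidise quinones, aldehydes and ketones gave the longest set of raised genes, 13 of 22 tested (59.1%), with 21 of 22 positive and a median log2 fold change of 1.58. Nqo1, the quinone reductase, stood at 462, 389, 185 and 404 CPM in Keap1-deleted tumours 1, 2, 4 and 5, against 78.6, 35.6, 50.7, 79.3 and 34.9 CPM in wildtype untreated tumours 1 to 5 and 30.6 to 85.7 CPM (median 53.7 CPM) in wildtype BAP tumours. No wildtype tumour reached the lowest Keap1-deleted one, and the log2 fold change was 2.73 with an SE of 0.36 (edgeR adjusted p = 0.00243).

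The steepest change on this list was that of Aldh3a1, an aldehyde dehydrogenase of surface epithelia. It stood at 2126, 1189, 471 and 1966 CPM in Keap1-deleted tumours, against 47.6, 9.17, 17.5, 89.8 and 75.9 CPM in wildtype untreated ones, a log2 fold change of 4.93 (edgeR adjusted p = 0.0177). Adh7, an alcohol dehydrogenase of the upper digestive tract, averaged 1121 ± 678 CPM in Keap1-deleted and 94.0 ± 35.7 CPM in wildtype untreated tumours, with a log2 fold change of 3.61 (edgeR adjusted p = 0.0123). Ptgr1, prostaglandin reductase, rose by 2.32, Cbr1, carbonyl reductase, by 1.33, and mitochondrial Aldh2 by 1.14. Of the 13 members, 5 (Nqo1, Ptgr1, Aldh2, Cbr1 and Adh7) were called in all 15 fits that left out 1 tumour, and the count was 6 without Keap1-deleted tumour 2 or wildtype untreated tumour 3.

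**Figure D3:**
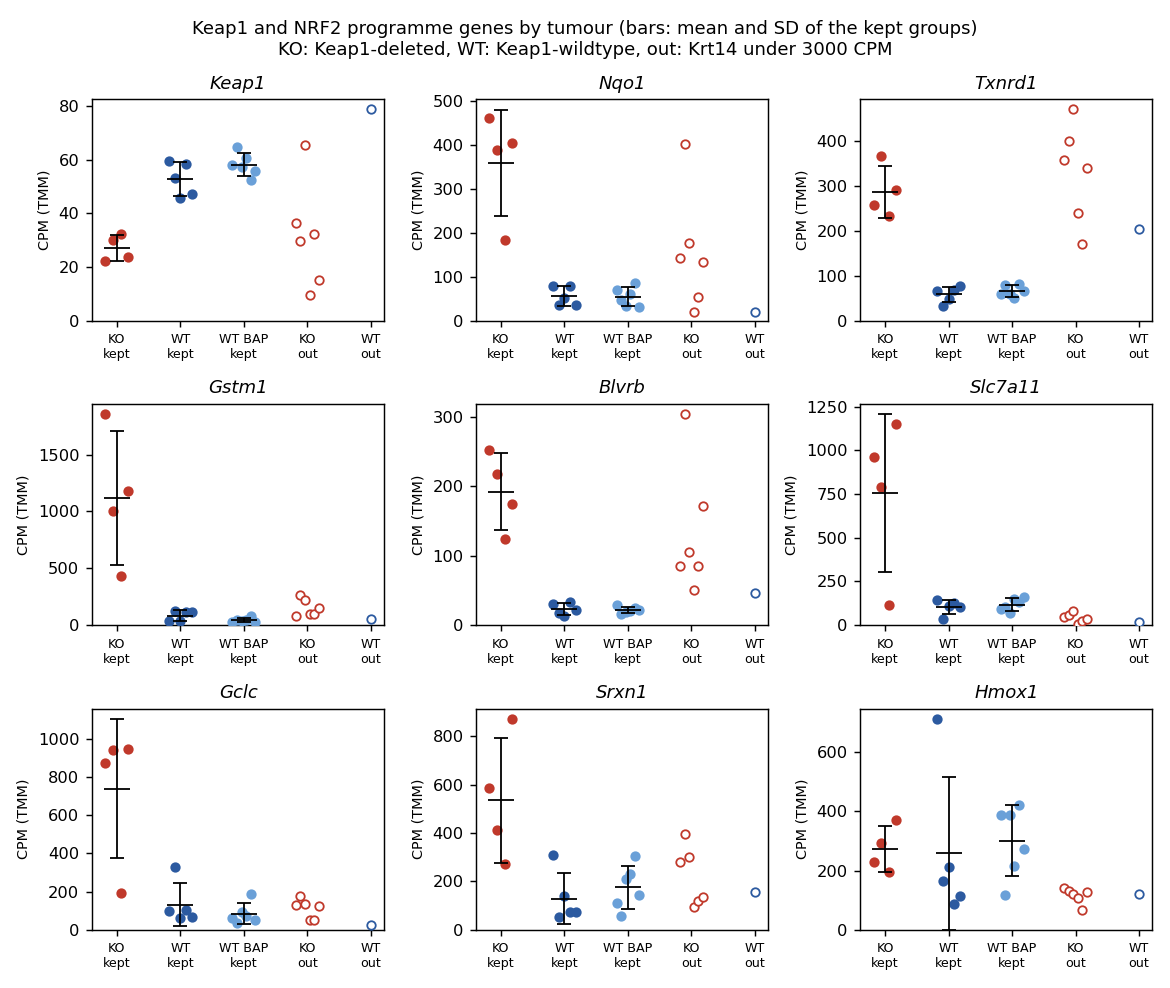
Level of Keap1 and 8 NRF2 programme genes in each tumour, in TMM-scaled CPM; filled points are kept tumours, open points those under the Krt14 minimum (Keap1-deleted untreated and BAP together), and bars give mean and SD. Txnrd1 lies at 233 to 367 CPM in the 4 kept Keap1-deleted tumours against 33.2 to 76.2 CPM in wildtype untreated ones, whereas Hmox1 overlaps between the groups.

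Of 10 genes of the pentose phosphate path and other sources of NADPH, 3 rose (30%, against 3.74% of all genes). They were Taldo1, transaldolase, H6pd, the enzyme of the endoplasmic reticulum, and Pgd, with log2 fold changes of 1.65, 2.70 and 1.07 (edgeR adjusted p = 0.01, 0.012 and 0.0212). Taldo1 and H6pd were called in all 15 fits that left out 1 tumour, whereas Pgd was lost without Keap1-deleted tumour 2 (0.0614) or wildtype untreated tumour 3 (0.0616). G6pdx, the first enzyme of the path, averaged 348 ± 147 CPM in Keap1-deleted and 193 ± 85.2 CPM in wildtype untreated tumours (edgeR adjusted p = 0.135). Me1, malic enzyme, averaged 195 ± 47.5 CPM in Keap1-deleted and 107 ± 46.3 CPM in wildtype untreated tumours (edgeR adjusted p = 0.0704).

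Of 12 heme and iron genes 5 rose, and heme oxygenase was not among them. Blvrb, biliverdin reductase B, had the smallest adjusted p of the NRF2 members named here. It stood at 253, 218, 125 and 175 CPM in Keap1-deleted tumours 1, 2, 4 and 5, against 30.7, 17.3, 12.6, 33.7 and 22.5 CPM in wildtype untreated tumours 1 to 5, a log2 fold change of 3.08 with an SE of 0.29 (edgeR adjusted p = 2.63e-04). The ferritin light chain gene Ftl1 stood at 1264, 1756, 1279.8 and 1269.6 CPM in Keap1-deleted tumours, against 272, 294, 148, 270.3 and 449.7 CPM in wildtype untreated ones, a log2 fold change of 2.31 (edgeR adjusted p = 0.00339). Neither gene's groups overlapped. Fth1, the ferritin heavy chain, rose by 2.23, Slc40a1, the iron exporter ferroportin, by 2.31 and Slc48a1, a heme transporter, by 1.90, which makes 5 of 12 (41.7%), each called in all 15 fits that left out 1 tumour. Ferritin and ferroportin are also abundant in macrophages, whose 6 defining markers summed to 332 to 1312 CPM in Keap1-deleted and 69.1 to 405 CPM in wildtype untreated tumours. With a macrophage score as a covariate the log2 fold changes were 1.70 for Ftl1 (edgeR adjusted p = 0.545), 1.12 for Fth1 (0.999914) and 1.76 for Slc40a1 (0.782), none past the threshold. That fit called 0 of 18540 genes. The log2 fold changes of Ftl1, Fth1 and Slc40a1 were smaller in it than without the score. Among other members, Txnrd1 went from 2.34 to 1.87 and Blvrb from 3.08 to 2.91. Nqo1 went from 2.73 to 3.28 and Gstm1 from 3.74 to 4.08. The part of macrophages was not tested.

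Hmox1, heme oxygenase, is a well-known NRF2 target that did not pass the test. It stood at 230.3, 292, 197 and 371 CPM in Keap1-deleted tumours 1, 2, 4 and 5, against 712, 166, 212, 88.3 and 114 CPM in wildtype untreated tumours 1 to 5, with a log2 fold change of 0.12, an SE of 0.52 and an edgeR adjusted p of 0.906. Wildtype tumour 1 alone was above every Keap1-deleted tumour. Left out in turn, single tumours moved the log2 fold change between -0.10 and 0.94.

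Of 7 tested transporters that export conjugates and drugs, 3 rose (42.9%), Abcc4, Abcc3 and Abcb1a, by 1.73, 1.73 and 1.92 on the log2 scale (edgeR adjusted p = 0.0137, 0.04 and 0.0396). None was called in all 15 fits that left out 1 tumour, and the count was 0 without Keap1-deleted tumour 2 and 1 without wildtype untreated tumours 2, 3 or 4. The call of Abcc4 was lost only without Keap1-deleted tumour 2 (adjusted p = 0.0594). Abcb1a was lost without Keap1-deleted tumours 2 (0.121) or 4 (0.109) or wildtype untreated tumours 1 (0.052), 2 (0.0638), 3 (0.0951) or 4 (0.0772). Abcc3 was lost without Keap1-deleted tumours 1 (0.0584), 2 (0.121) or 5 (0.0654), wildtype untreated tumours 2 (0.073), 3 (0.0884) or 4 (0.0878), or wildtype BAP tumours 1 (0.0512) or 4 (0.0519).

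The 4 Keap1-deleted tumours were not alike in this programme. Tumour 4, with the least Krt14, was the lowest of them for 30 of the 43 members that rose, tumour 1 for 7, tumour 5 for 5 and tumour 2 for 1. The highest was tumour 5 for 14 members, tumours 1 and 2 for 12 each and tumour 4 for 5. Set against the wildtype untreated tumours kept, tumours 2 and 5 were above all 5 for 43 of 43 members, tumour 1 for 42 and tumour 4 for 31. Among tumours not kept, Keap1-deleted untreated 3 was above all 5 for 22 members and the 5 Keap1-deleted BAP tumours for 33, 23, 13, 13 and 20, but wildtype untreated 6 also for 13. Members were chosen as raised in the kept tumours, so these counts are a description and have no test. Without tumour 4, which is the same as a Krt14 minimum of 10000 CPM, 35 members were higher.

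Whether the Keap1 effect differed between keratinocyte-rich and keratinocyte-poor untreated tumours was tested as an interaction in all 22 libraries. edgeR called 0 of 19202 genes, with 1377 at an unadjusted p under 0.05, and DESeq2 called 44. The keratinocyte-poor side held 1 Keap1-deleted and 1 wildtype untreated tumour, whose spread was assumed to be that of the other groups. No effect is therefore called particular to keratinocyte-rich tumours, and absence of a difference is not shown either.

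How many NRF2 members passed the test depended on what else was in the model. With the macrophage score as a covariate, edgeR called 0 genes of 18540 in either direction, 0 of 107 NRF2 members, and 692 genes at an unadjusted p under 0.05. The log2 fold change of Nqo1 was then 3.28 (edgeR adjusted p = 0.0962), that of Txnrd1 1.87 (0.137), that of Blvrb 2.91 (0.0629) and that of Gstm1 4.08 (0.128). With the skeletal muscle score as a covariate, 8 genes were higher and 0 lower, of which 3 were NRF2 members, among them Blvrb (3.20, adjusted p = 0.0131), Nqo1 (3.04, 0.0316) and Txnrd1 (2.31, 0.0316). With log2 Krt14 as a covariate, 192 genes were higher and 49 lower, and 34 of 107 NRF2 members were higher. Macrophage and muscle markers reached higher sums in Keap1-deleted tumours (332 to 1312 and 196 to 888 CPM) than in wildtype untreated ones (69.1 to 405 and 2.27 to 179 CPM), so score and genotype move together and cannot be fully told apart. In the untreated tumours alone, 95 genes were higher and 3 lower, with 18 NRF2 members higher.

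**Figure D4:**
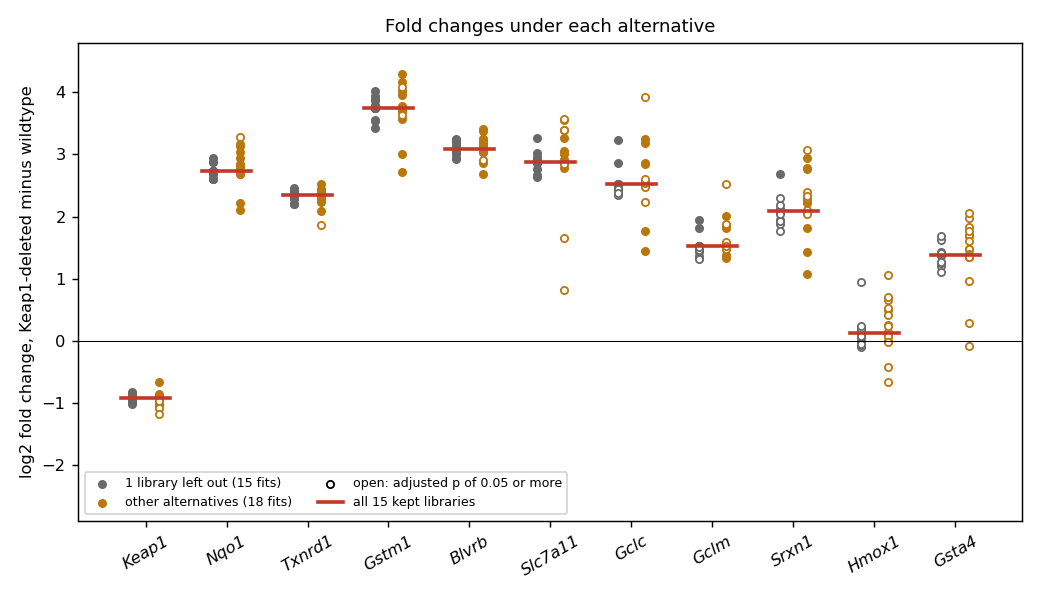
Log2 fold change, Keap1-deleted minus wildtype, of Keap1 and 10 NRF2 programme genes in the fit to all 15 kept libraries (red line), in 15 fits that left out 1 library (grey) and in 18 other alternatives (orange); open points had an edgeR or other adjusted p of 0.05 or more. Nqo1, Txnrd1, Gstm1 and Blvrb stay at 1.87 or more in each fit shown, while Hmox1 lies on both sides of 0.

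Markers of cells other than keratinocytes also differed between the groups. Wildtype untreated tumour 6, not kept, had macrophage markers at 3325 CPM, above the 332 to 1312 CPM of the kept Keap1-deleted tumours. Its neutrophil (119 CPM), fibroblast (25562 CPM) and endothelial (194 CPM) markers lay within the range of those tumours. Its B and plasma cell (20.9 CPM) and muscle (94.4 CPM) markers lay below that range. The reason was not tested. In the list for macrophages and monocytes 10 genes of 20 rose (3.74% of all genes did) and the others did not pass, with a median log2 fold change of 1.89. Cd14, the lipopolysaccharide co-receptor of monocytes, stood at 75.2, 191, 106 and 95.9 CPM in Keap1-deleted tumours 1, 2, 4 and 5, against 26.1, 8.15, 12.0, 27.2 and 28.5 CPM in wildtype untreated tumours 1 to 5, and its log2 fold change was 2.57 (edgeR adjusted p = 0.00559). Mmp12, macrophage elastase, averaged 205 ± 55.1 CPM in Keap1-deleted and 14.3 ± 8.18 CPM in wildtype untreated tumours, a log2 fold change of 3.87 (edgeR adjusted p = 0.00596). Trem2, a lipid-sensing receptor of tissue macrophages, and Lyz2, lysozyme, rose by 3.82 and 3.72 on the log2 scale.

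These 4 genes were called in all 15 fits that left out 1 tumour, and the count of 10 was less steady. It was 4 without Keap1-deleted tumour 2, 5 without Keap1-deleted tumour 4, 4 without wildtype untreated tumour 3, 5 without wildtype untreated tumour 4 and 14 without wildtype untreated tumour 5. With log2 Krt14 as a covariate 4 of the 20 were higher.

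Neutrophil genes rose for 5 of 12 tested (41.7%, against 3.74% of all genes), with a median log2 fold change of 2.72. Cxcr2, the receptor that draws neutrophils to CXC chemokines, stood at 18.01, 56.6, 20.97 and 21.8 CPM in Keap1-deleted tumours, against 4.56, 1.72, 4.66, 4.67 and 6.41 CPM in wildtype untreated ones. Each Keap1-deleted tumour was above each wildtype one, with tumour 2 far above the rest, and the log2 fold change was 2.78 (edgeR adjusted p = 0.00559). Clec4d, a C-type lectin of myeloid cells, rose by 3.50, Csf3r, the G-CSF receptor, by 2.89 and Mmp8, neutrophil collagenase, by 4.32. The call of Csf3r was lost without Keap1-deleted tumour 2 (0.0518), and that of Mmp8 without Keap1-deleted tumours 2 (0.122) or 4 (0.056) or wildtype untreated tumour 4 (0.0641). The count was 2 without Keap1-deleted tumour 2, and 3 without Keap1-deleted tumour 4 or without wildtype untreated tumour 4.

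Of B and plasma cell genes Igha, Igkc and Jchain rose. Igha, the heavy chain constant gene of immunoglobulin A, stood at 46.9, 64.0, 1087 and 373 CPM in Keap1-deleted tumours 1, 2, 4 and 5, against 2.68, 1.39, 3.09, 4.94 and 5.40 CPM in wildtype untreated tumours 1 to 5. Even the lowest Keap1-deleted tumour was well above the highest wildtype one, and the log2 fold change was 6.87 with an SE of 1.03 (edgeR adjusted p = 0.00466). Igkc rose by 7.75 and Jchain, the chain that joins secreted immunoglobulin A, by 6.59. In all, 3 of 8 tested B and plasma cell genes rose (37.5%, against 3.74% of all genes). The call of Jchain was lost without Keap1-deleted tumour 4 (0.09) or wildtype untreated tumour 4 (0.053); the count was then 2. The immunoglobulin A chain is made by plasma cells of mucosa and salivary gland. The salivary gland markers Aqp5, Bhlha15 and Smr3a summed to 33.6 to 150.4 CPM in Keap1-deleted and 8.06 to 229.96 CPM in wildtype untreated tumours, with Smr3a at 0 in every kept tumour, and their part was not tested.

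T cell genes gave no call by edgeR: 0 of 15 passed, 3 had an unadjusted p under 0.05 and DESeq2 called 1, with Il7r and Trbc2 at the smallest p (edgeR adjusted p = 0.0907 and 0.106, log2 fold changes of 1.25 and -0.72). The 3 CD3 chains summed to 4.34 to 12.2 CPM in Keap1-deleted and 1.27 to 7.22 CPM in wildtype untreated tumours. Of other immune lists, 1 of 14 MHC class II and dendritic cell genes rose (7.14%, against 3.74% of all genes), namely Itgax, by 2.34 (edgeR adjusted p = 0.0218). By edgeR 0 of 20 type I interferon genes passed (2 at an unadjusted p under 0.05, 0 by DESeq2) and 0 of 9 mast cell and eosinophil genes passed (3 and 2). In the MHC class I list 1 of 11 genes fell, where 1.77% of all genes did. The last was Nlrc5, a transactivator of class I genes, with a log2 fold change of -1.85 (edgeR adjusted p = 0.0177). A single call in a list of this size is no result about the list. The call of Itgax was lost without Keap1-deleted tumour 2 (0.0793) or wildtype untreated tumours 3 (0.0616) or 4 (0.0508), and that of Nlrc5 without Keap1-deleted tumours 2 (0.0527) or 4 (0.0523). Among 21 chemokine and myeloid growth factor genes Nos2, the inducible nitric oxide synthase, rose (3.86, edgeR adjusted p = 0.048), a share of 4.76% near the 3.74% of all genes and so no result about the list, and a call lost in 13 of 15 fits, with adjusted p up to 0.184 without Keap1-deleted tumour 2 and kept only without wildtype untreated tumour 5 or Keap1-deleted tumour 1. Eomes, a T-box factor of cytotoxic and natural killer cells, was the only 1 of 6 tested members of that list to rise, by 6.08 (edgeR adjusted p = 0.0221). This is again a single call and no result about the list. It was lost without Keap1-deleted tumour 2 (0.0906) or wildtype untreated tumour 3 (0.0541).

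Endothelial genes rose for 7 of 14 (50%, against 3.74% of all genes). Among them was Pecam1 (CD31), at 79.3, 165, 108 and 100.04 CPM in Keap1-deleted tumours, against 47.2, 19.3, 26.3, 46.1 and 56.3 CPM in wildtype untreated ones. All 14 log2 fold changes were positive, and Pecam1 gave 1.58 (edgeR adjusted p = 0.0275). Lyve1, a lymphatic and macrophage receptor, rose by 2.74, endoglin (Eng) by 1.46 and the receptor Tie1 by 1.39. None of the 7 was called in all 15 fits, and the count was 0 without Keap1-deleted tumours 2 or 4 or wildtype untreated tumours 3 or 4, 4 without wildtype untreated tumour 1, 3 without wildtype untreated tumour 2 or wildtype BAP tumours 4 or 5, and 0 with log2 Krt14 as a covariate. Their adjusted p values without Keap1-deleted tumour 2 were 0.0963 for Pecam1, 0.0887 for Lyve1, 0.116 for Eng and 0.119 for Tie1.

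**Figure D5:**
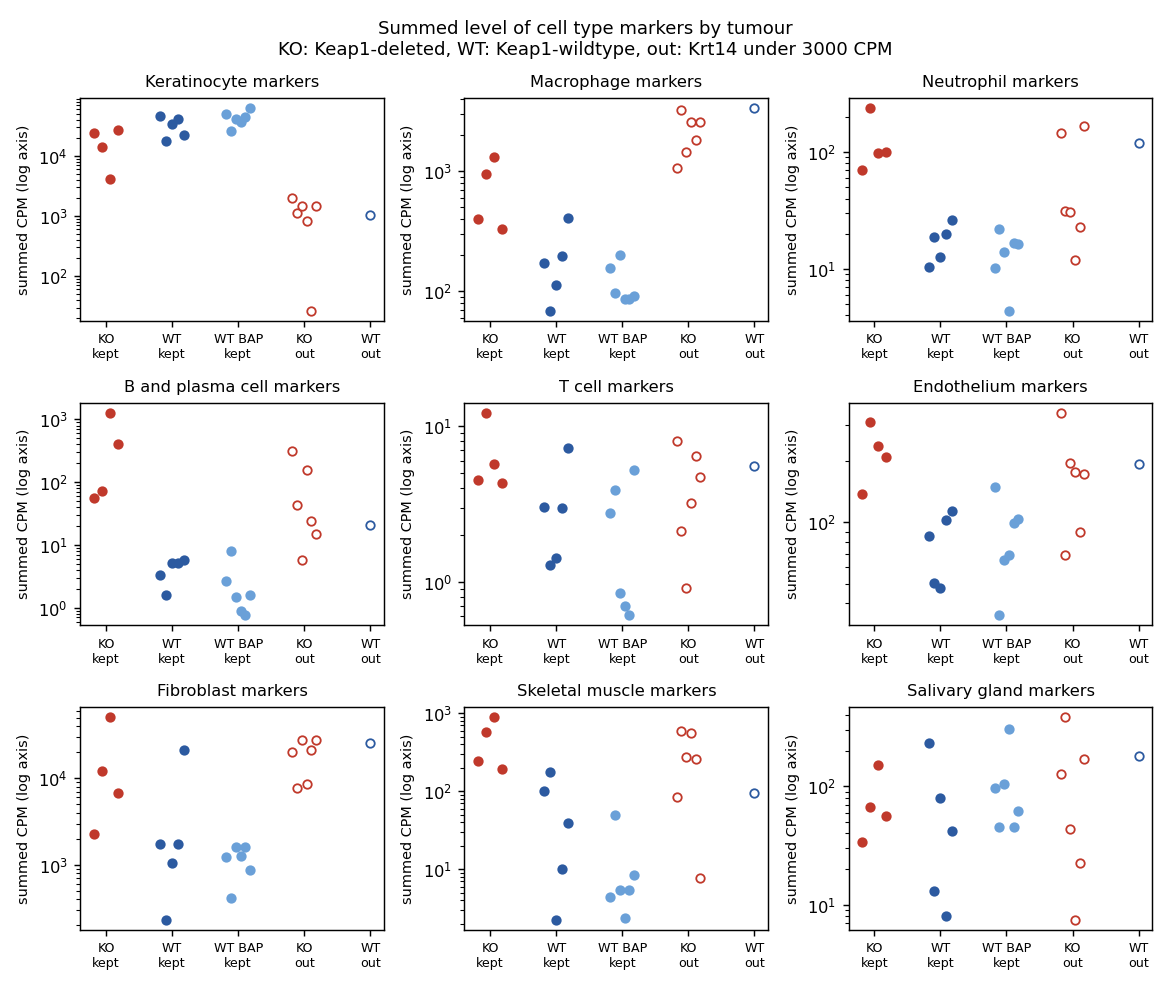
Summed level of the defining markers of 9 cell types in each tumour, in TMM-scaled CPM on log axes; filled points are kept tumours and open points those under the Krt14 minimum. Neutrophil markers lie at 70.5 to 237 CPM in the 4 kept Keap1-deleted tumours against 10.3 to 26.3 CPM in wildtype untreated ones, and keratinocyte markers reach lower in the Keap1-deleted group.

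Muscle and stroma showed fewer calls, set against 3.74% of all genes that rose. Of 17 skeletal muscle genes 3 rose, Des, Mb and Mylpf, by 2.98, 3.32 and 2.58 (edgeR adjusted p = 0.0342, 0.0343 and 0.0358), and the count was 0 without Keap1-deleted tumours 2 or 4 or wildtype untreated tumour 4, and 1 without wildtype untreated tumour 3. The 4 muscle markers Ckm, Acta1, Mylpf and Myh4 summed to 196 to 888 CPM in Keap1-deleted and 2.27 to 179 CPM in wildtype untreated tumours. Of 18 fibroblast genes all were positive and only Pdgfra rose (2.95, edgeR adjusted p = 0.0384), a share of 5.56% near that of all genes. The Pdgfra call was lost without Keap1-deleted tumours 2 (0.1) or 4 (0.122) or wildtype untreated tumours 1 (0.0587), 2 (0.059), 3 (0.0784) or 4 (0.0844). Without wildtype untreated tumour 5 the count was 17. The 5 fibroblast markers summed to 2256 to 50424 CPM in Keap1-deleted and 233 to 21116 CPM in wildtype untreated tumours. Of 11 genes of epithelial-mesenchymal transition, Zeb2, Itga5 and Cdh2 rose, by 2.23, 1.56 and 3.32, and 0 were called without Keap1-deleted tumours 2 or 4 or wildtype untreated tumours 3 or 4, 1 without wildtype untreated tumour 1 or wildtype BAP tumours 1 or 4, 6 without Keap1-deleted tumours 1 or 5 or wildtype BAP tumour 2, and 8 without wildtype untreated tumour 5; Zeb2 is also expressed by macrophages and fibroblasts.

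Some genes fell. Of 11 hypoxia response genes, 3 were lower in Keap1-deleted tumours (27.3%, against 1.77% of all genes) and the median log2 fold change was -1.03. Vegfa, the endothelial growth factor, stood at 80.5, 88.7, 80.8 and 124 CPM in Keap1-deleted tumours, against 222, 407, 249, 475 and 110.4 CPM in wildtype untreated ones, with wildtype tumour 5 alone inside the Keap1-deleted range; its log2 fold change was -1.60 (edgeR adjusted p = 0.0411). The Vegfa call was lost without Keap1-deleted tumours 1 (0.0757), 2 (0.118) or 4 (0.125), wildtype untreated tumours 2 (0.0731), 3 (0.0788) or 4 (0.0907), or wildtype BAP tumours 3 (0.0527) or 5 (0.0524). Car9, a carbonic anhydrase induced by low oxygen, and Ankrd37 fell by 2.42 and 1.40 on the log2 scale (edgeR adjusted p = 0.032 and 0.0195). The count was 0 without Keap1-deleted tumours 2 or 4, 1 without wildtype untreated tumours 3 or 4, and 0 with log2 Krt14 as a covariate.

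Mki67, a nuclear protein of dividing cells, stood at 87.9, 81.7, 52.7 and 133 CPM in Keap1-deleted tumours 1, 2, 4 and 5, against 155, 201, 176, 251 and 153 CPM in wildtype untreated tumours 1 to 5. The groups did not overlap, as for 4.04% of all genes in this direction, and its log2 fold change was -1.04 (edgeR adjusted p = 0.0258). It was 1 of 3 among 20 cell cycle genes that fell, where 1.77% of all genes did, with Cdk1, the mitotic kinase, and Brca2, which acts in recombination; 19 of 20 were negative. The count was 0 without Keap1-deleted tumours 2 or 4 or wildtype untreated tumours 3 or 4, and 0 with log2 Krt14 as a covariate.

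Fabp4, a fatty acid binding protein of adipocytes, endothelium and macrophages, had the steepest fall of the genes named by rule. Its level was 63.3, 114, 41.3 and 108 CPM in Keap1-deleted tumours, against 3651, 33.9, 4257, 3464 and 2183 CPM in wildtype untreated ones. Wildtype tumour 2 lay below every Keap1-deleted tumour and the other 4 far above. The log2 fold change was -5.02 (edgeR adjusted p = 0.0265), and the call was lost without Keap1-deleted tumours 2 (0.0836) or 4 (0.0911) or wildtype untreated tumours 3 (0.0605) or 4 (0.0537). The adipocyte markers Adipoq, Plin1 and Cidec summed to 1.27 to 12.8 CPM in Keap1-deleted tumours and to 0 to 1.84 CPM in wildtype untreated ones, with Adipoq at 0 in all 5 of these.

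The other genes with the steepest falls were BC100530, Hoxc4, Bcl2l15, Bglap3, Baiap3, Rnf32 and 3 mitochondrial transfer RNA genes, mt-Tw, mt-Tn and mt-Tc. Their log2 fold changes lay between -4.54 for mt-Tw and -2.63 for Rnf32. Each lost its call in at least 1 of the fits that left out 1 tumour, always including that without Keap1-deleted tumour 2, where the adjusted p values were 0.113, 0.0819 and 0.0547 for mt-Tw, mt-Tn and mt-Tc. BC100530, Baiap3 and Hoxc4 were called in only 3, 3 and 4 of the 15. The others, mt-Tc apart, were also lost without Keap1-deleted tumour 4 or wildtype untreated tumours 3 or 4, in 2 or more of these fits each, and mt-Tw also without Keap1-deleted tumour 1. By raw counts, mt-Tw had 31 counts in the 4 Keap1-deleted and 798 in the 5 wildtype untreated libraries. The groups overlapped for mt-Tw (highest Keap1-deleted 0.465, lowest wildtype untreated 0.268 CPM) and for mt-Tn (3.03 and 2.11 CPM). At 67, 71 and 66 bases, mt-Tw, mt-Tn and mt-Tc are shorter than the reads of 150 bases. Their counts may therefore not measure mature transfer RNA.

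Among the steepest rises were genes seldom named in squamous epithelium. Adam23, a membrane protein best known from neurons, stood at 14.6, 128, 188 and 69.1 CPM in Keap1-deleted tumours, against 0.335, 0.721, 1.63, 0.193 and 5.61 CPM in wildtype untreated ones, a log2 fold change of 5.89 with an SE of 0.95 (edgeR adjusted p = 0.0056). The groups did not overlap, as for 5.57% of all genes in this direction, with 14.6 CPM the lowest Keap1-deleted and 5.61 CPM the highest wildtype untreated value. The call was lost by limma-voom (adjusted p = 0.0522). In edgeR it was lost with the muscle score (adjusted p = 0.174) or the macrophage score (0.461) as a covariate. Nefm, the medium neurofilament chain, had 783 counts over the 4 Keap1-deleted libraries and 0 over the 5 wildtype untreated ones, which makes it at least 324-fold higher with a floor of 3 counts over the group. Of 10 tested neural-type genes, a list drawn up from these same tumours and so no independent evidence, 3 rose: Adam23, Nrcam and Nrxn2. The count was 1 without Keap1-deleted tumour 2 and 2 without Keap1-deleted tumour 4.

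Prl2c2 and Prl2c5, prolactin family genes of placenta, rose by 7.97 and 7.14 on the log2 scale (edgeR adjusted p = 0.00859 and 0.0215); they are near-identical copies, and how reads were divided between them is uncertain. The call of Prl2c5 was lost without Keap1-deleted tumour 2 (0.0659). Myh8, a myosin heavy chain of fetal and regenerating muscle, rose by 7.64 (edgeR adjusted p = 0.00559) and was called in all 15 fits that left out 1 tumour. Ces1f, a carboxylesterase with close paralogs, rose by 6.86 and Scara5, a ferritin receptor of stromal cells, by 6.15, at 21.1, 95.9, 125 and 11.3 CPM in Keap1-deleted tumours, against 1.14, 1.88, 0, 0.309 and 1.27 CPM in wildtype untreated ones. Without Keap1-deleted tumour 2, Ces1f (0.0836) and Scara5 (0.0525) lost their call; Ces1f also did without wildtype untreated tumours 3 (0.0535) or 4 (0.0508). Dpp6, a potassium channel subunit, rose by 6.01 (edgeR adjusted p = 0.0343), lost without Keap1-deleted tumours 2 (0.0797) or 4 (0.17), wildtype untreated tumours 2 (0.0538), 3 (0.0802) or 4 (0.074), or wildtype BAP tumour 5 (0.0634).

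Metabolic and signalling lists outside the NRF2 programme held few calls, and 1 call in 13 or 14 genes (7.69% or 7.14%, against 3.74% of all genes) is not a result about a list. Gldc, the glycine decarboxylase, was the single member of 13 serine, glycine and one-carbon genes to rise (4.12, edgeR adjusted p = 0.0336), lost without Keap1-deleted tumour 2 (0.104) or wildtype untreated tumours 3 (0.0561) or 4 (0.0702). Of 16 glycolysis genes, 14 sterol synthesis genes, 16 genes of the PI3K, AKT and mTOR path and 6 aryl hydrocarbon receptor genes, 0 passed by edgeR. At an unadjusted p under 0.05 there were 4, 0, 4 and 3, and DESeq2 called 1, 0, 1 and 1. The members of smallest p were Pfkp of the glycolysis list (-0.95, edgeR adjusted p = 0.0754) and Cyp1b1 of the aryl hydrocarbon receptor list (2.22, 0.129). Pik3ca, whose mouse gene is distinct from the transgene, averaged 101 ± 9.55 CPM in Keap1-deleted and 110.4 ± 18.9 CPM in wildtype untreated tumours; how reads of the transgene were counted is not given. Trp53 averaged 20.4 ± 5.79 CPM in Keap1-deleted and 11.03 ± 4.07 CPM in wildtype untreated tumours (log2 fold change 0.93, edgeR adjusted p = 0.0861). Ccng1, a p53 target, rose by 0.65 (edgeR adjusted p = 0.0389), a call lost without Keap1-deleted tumours 2 (0.0952) or 4 (0.13), wildtype untreated tumours 1 (0.0574), 2 (0.0557), 3 (0.0898) or 4 (0.0666), or wildtype BAP tumour 3 (0.0507).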

How the data were processed

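Bulk RNA-seq of 22 mouse tumours was used. Tumours were frozen and ground, their total RNA was isolated on columns, and read pairs of 150 bases were sequenced, per the labels. The deposited tables hold 1 expected count for each Ensembl gene, from RSEM per the file names; all were whole numbers within 1e-09. A deposited effective length, another quantity in those tables, was not used. The aligner, build and annotation were not given in the sources used. Symbols came from GENCODE M21 (GRCm38) by ID, for 52073 of 56748 IDs holding 99.39% of counts.

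Libraries with Krt14 at 3000 CPM or more (count over library total) were kept. Members and gene lists were chosen with earlier results of these data known. Counts were fitted with edgeR 4.0.16 in R 4.3.3 (filterByExpr with a minimum count of 10, TMM, robust quasi-likelihood, terms for genotype and BAP), with Benjamini-Hochberg adjustment over 18540 genes and calls at an adjusted p under 0.05. Printed levels are CPM scaled by TMM over all 22 libraries. Tumours are numbered in accession order. In simulated data of this design (17919 genes), genes changed by 1, 2 or 3 on the log2 scale were called in 10.4%, 55.2% and 84.8% of cases, with 3 false calls. At these sizes 67, 67 and 66 genes were changed, and no BAP effect was simulated. Named genes are 14 set by name, at most 10 called genes a direction by size of fold change (over 1 CPM on average, without pseudogenes, predicted genes or receptor segments), and for each of 38 lists at most 4 called members by smallest p, or 2 as values. Aldh3a1, Adh7, Gsta3, Gpx2, Gpx3, G6pdx, Me1 and Slc48a1 were chosen after their values were seen. Alternatives used DESeq2 1.42.0, limma 3.58.1, other filters, scalings, members and covariates, and left out each library in turn. The Ddx3y level, macrophage score and basal keratinocyte score (a list's mean log2 CPM) were added as covariates after seeing the data. A few genes that the rule would name are not reported here.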

Additional observations from a re-analysis of the deposited data

Results flagged for a closer look

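A tumour far from the others of its group was looked for by Dixon's ratio of the gap to the range, over 87 groups of 4 to 6 tumours. The search took in part of the printed genes, Krt14 without TMM, percent mitochondrial counts and genes detected. Other printed genes, such as Aldh3a1, Adh7, Gpx3, Mmp12 and Scara5, were not checked. It found 10, and chance alone gives about 1 in 20 groups where values are normally distributed. Gclc stood at 194.9 CPM in Keap1-deleted tumour 4, far below 872 CPM in the next, and at 331 CPM in wildtype untreated tumour 2, where the next was 103 CPM. Wildtype untreated tumour 2 was also far above the rest for Gclm, at 253 CPM against 116 CPM. Hmox1 reached 712 CPM in wildtype untreated tumour 1, where the next was 212 CPM. Ftl1 was 1756 CPM in Keap1-deleted tumour 2 (next 1279.8 CPM) and 625.4 CPM in wildtype BAP tumour 5 (next 355 CPM). Cxcr2 was 56.6 CPM in Keap1-deleted tumour 2, against 21.8 CPM in the next. Igha was 6.27 CPM in wildtype BAP tumour 2 (next 2.20 CPM), Vegfa 867 CPM in wildtype BAP tumour 1 (next 417 CPM) and Adam23 5.61 CPM in wildtype untreated tumour 5 (next 1.63 CPM). No other sample or file was set aside, and the cause of these distances was not tested.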

How the results depend on the processing

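No paired analysis was possible because the labels give the groups no shared replicate numbers. Against 693 genes higher, 329 lower and 43 NRF2 members higher, leaving out each of 15 libraries in turn gave 134 to 1562 higher, 6 to 744 lower and 25 to 44 NRF2 members. Higher and lower counts were 1631 and 1213 by DESeq2, 1941 and 671 with no BAP term, 95 and 3 in untreated tumours alone, 3913 and 2340 with a Krt14 minimum of 1000 CPM, 238 and 26 with 10000 CPM, and 3202 and 3173 with none. With 1000 CPM or none, 7 and 10 Keap1-deleted tumours entered, some with BAP and all the added ones lower in Krt14. The contrast was then no longer within untreated tumours. As covariates, log2 Krt14 gave 192 and 49, the muscle score 8 and 0, the R suffix 99 and 22, the macrophage score 0 and 0 and the basal keratinocyte score 135 and 12. Only the lower count moved by over 1.5 times with library totals (144), no filter (165) and Ddx3y (179). NRF2 members higher moved by that much in untreated tumours alone (18), with the R suffix (18), the muscle score (3) and the macrophage score (0), and lay between 33 and 53 otherwise outside the left-out fits. The interaction was 0 genes by edgeR and 44 by DESeq2. Of 2802 alternative values of 85 named genes called, 2801 kept their direction and 743 lost the call; Itga5 reversed with the macrophage score (-0.16, adjusted p = 0.999914). The cause of these shifts was not tested. With 4 tumours against 5, changes of 1 on the log2 scale were mostly not called in the simulated data. Those data held fewer changed genes than the 1022 called here and no BAP effect, so the share called may differ in the real data. Keap1, at -0.92, was called.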
